A study of Mus musculus with 9 samples.

Results

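The genes described here encode 10 molecules linked to the suppression of other immune cells by regulatory T (Treg) cells. Il10, Ebi3, Fgl2 and Ecm1 are secreted, and Entpd1 and Nt5e are enzymes of the cell surface. Lag3, Itgae, Cd44 and Cd83 are receptors and adhesion molecules. The 10 genes are found by gene symbol in the annotation of the array, by a rule that uses no measured value. The names were, however, put together with earlier results of these data known. All 10 were found among 12393 measured genes. Together they are read by 13 of the 20380 probe sets that carry a single gene symbol; a probe set is the group of short probes that yields 1 value per transcript. The samples were CD4+CD25+ cells separated with magnets from C57Bl/6 mice and profiled on 9 single-colour Affymetrix arrays, 3 in each of 3 groups. The first group carried fl-CBP and Foxp3cre, the second fl-p300 and Foxp3cre, and the third was the Foxp3cre control, which the design text also calls wild type. All 3 groups therefore carry the Foxp3-driven Cre recombinase according to the genotype labels. The Cre acts where Foxp3 is expressed, so cells in the preparation that lack Foxp3 keep the targeted gene, and other CD4+ T cells can also bear CD25. CBP and p300 are related acetyltransferases of histones and other proteins, and the study asked whether Treg cells need each of them.

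Treg cells act on their neighbours in several ways. They release inhibitory cytokines: IL-10 acts on macrophages, dendritic cells and T cells through a receptor that signals to STAT3, and EBI3 is a subunit shared by the cytokines IL-27 and IL-35. They convert extracellular ATP to adenosine in consecutive steps, with CD39 (Entpd1) removing phosphates from ATP and CD73 (Nt5e) releasing adenosine from AMP. They also carry receptors that engage antigen-presenting cells or hold the cells in tissue.

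The values are deposited log2 intensities, so a difference of 1 is a doubling, and levels are compared only within a probe set. Array medians lay between 5.49 and 5.59. To mark the dim end of the scale, 27 genes restricted to tissues such as liver, pancreas, heart and eye were used; the 90th percentile of these genes lay between 4.92 and 5.31 on the 9 arrays. By that measure 9 of the 10 effector genes were above the dim range on all 9 arrays, and Nt5e on 8, with control replicate 2 at 4.88 below it. Crebbp, the gene of CBP, read 7.53 ± 0.16 (SD, n = 3) in controls against 7.20 ± 0.13 when CBP was deleted, a difference of -0.33 that did not pass (limma adjusted p = 0.123); where its probes lie relative to the deleted part is not given in the sources used here, so this does not check the labels. The gene of p300 was not analysed here. Treg identity was checked with Foxp3: its level was 9.60 ± 0.14 (SD, n = 3) for control cells, 2.87 ± 0.12 after CBP deletion and 2.95 ± 0.32 after p300 deletion. The knockout readings are in the dim range; whether this probe set reads the transcript of the Cre-bearing allele in those mice was not tested. The controls, titled WT, do not share this low reading although their genotype label names Foxp3cre, and whether they carry the Cre allele was not tested. If they lack it, the Cre allele and the deletion cannot be told apart in any difference from the control; the comparison of the knockouts with each other is not touched by this. Il2ra, the gene of CD25, read 9.05 ± 0.25, 9.09 ± 0.14 and 9.29 ± 0.06 in the same order. In 18S ribosomal RNA probe sets the controls read log2 5.82, 6.20 and 8.88 in replicates 1 to 3, and the 6 knockout arrays lay between 7.39 and 9.62. Control replicates 1 and 2 were therefore below all knockout arrays, and control replicate 3 lay within their range. Without control replicate 3, the 18S level and the deletion cannot be told apart in a difference from the control. Where leaving out control replicate 3 ended or made a call for 1 of the 10 genes, the value without it is given too. In these bulk samples fewer cells of a type and less RNA per cell cannot be told apart.

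Of the 10 effector genes, Il10 rose in both knockouts, Cd44 fell in both, Ecm1 fell in CBP-deleted cells and Ebi3 rose in p300-deleted cells. The Cd44 calls (CBP-deleted, p300-deleted) and the Ebi3 call were near the threshold and passed in 7, 5 and 9 of 20 alternative fits, described below. The other 6 (Fgl2, Entpd1, Nt5e, Lag3, Itgae and Cd83) passed in no comparison. In CBP-deleted against control cells 3 of 10 passed (1 higher, 2 lower) at a limma adjusted p under 0.05, where 4.93% of all genes passed (2.14% higher and 2.79% lower). In p300-deleted against control cells 3 of 10 passed (2 higher, 1 lower) against 4.06% of all genes (2.02% higher and 2.04% lower). Between the knockouts 2 of 10 passed, both lower in CBP-deleted cells, against 5.20% of all genes (3.20% higher and 2.01% lower). No array of one group reached into the range of the other for 4, 3 and 3 of the 10, in the same order, where 24.4%, 20.3% and 30.1% of all genes separated in that way. The median of the 10 log2 differences was near 0 in each comparison (-0.05, 0.09 and -0.03, against -0.03, -0.02 and -0.02 over all genes), while the median size regardless of sign was 0.43, 0.47 and 0.36, against 0.13, 0.12 and 0.12 over all genes. The list therefore held changes in both directions and no common shift. All genes include those under log2 5 in all groups, and none of the 10 is among those. With such genes left out, 692, 582 and 753 genes passed, against 611, 503 and 645, although fewer were tested. The percentages over all genes are therefore low as a background for these 10, and the median sizes were not compared without dim genes. The list was also put together with earlier results known, so these figures do not test whether it is enriched. Both knockouts are compared with the same 3 controls, so the differences of the knockouts are not independent of each other. The limma count of 3 after p300 deletion was 1 without CBP-deleted replicate 1 or 2 and 0 without p300-deleted replicate 2, where 5 of 10 had an unadjusted p under 0.05.

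**Figure D1:**
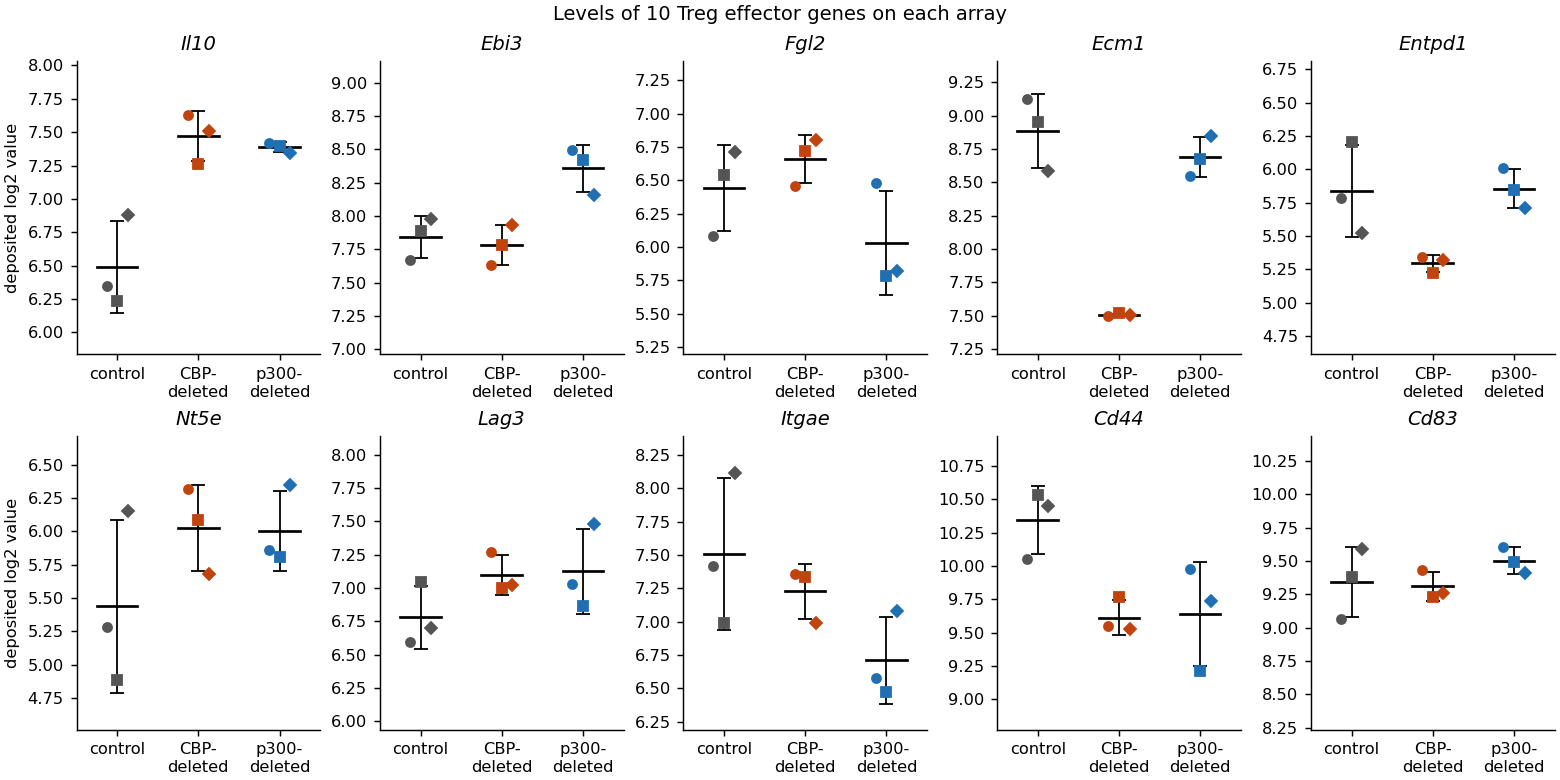
Deposited log2 value (vertical axis, each panel spanning the same log2 range) of the 10 genes in control, CBP-deleted and p300-deleted cells. Circles, squares and diamonds are replicates 1, 2 and 3, horizontal lines are means and error bars are SDs over 3 arrays; Il10 is higher in all 6 knockout arrays than in the controls, and Ecm1 is low on the 3 CBP-deleted arrays alone.

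Among the secreted molecules, Il10 read 6.35, 6.24 and 6.88 in control replicates 1 to 3, 7.63, 7.26 and 7.51 in CBP-deleted and 7.42, 7.40 and 7.35 in p300-deleted replicates. All 6 knockout arrays lay above all 3 controls, and control replicate 3 was the closest to them. In CBP-deleted cells Il10 was 1.97-fold higher (log2 0.98, SE 0.16, limma adjusted p = 0.00898). In p300-deleted cells it was 1.87-fold higher (log2 0.90, SE 0.16, limma adjusted p = 0.0118). The knockouts differed from each other by 0.08, with a 95% interval of -0.26 to 0.43, so a difference of up to about this size in either direction is not excluded by these arrays. The rise in CBP-deleted cells passed in all 20 alternatives (log2 0.86 to 1.18). Il10 has 1 probe set, so the alternatives on probe sets could not change this difference. Leaving out a p300-deleted array could not change it either, only its adjusted p. The rise in p300-deleted cells was 0.90 with a limma adjusted p of 0.0618 without p300-deleted replicate 2, and 0.69 with 0.0594 after adjustment for 18S, in a range of 0.00106 to 0.0618 over 20 alternatives. Macrophages and other myeloid cells can also make IL-10. The summed linear level of 10 macrophage and monocyte markers was 441 to 949 for controls, 445 to 976 for CBP-deleted and 530 to 1449 for p300-deleted arrays. Of these 10, 0 passed with limma against the control in either knockout (0 and 5 at an unadjusted p under 0.05). The sum of 11 neutrophil markers was 301 to 479, 566 to 4248 and 620 to 2820. Of the 11, 9 read higher than in controls with CBP deletion (median log2 difference 0.97) and 10 with p300 deletion (1.30). With limma 1 passed in each knockout: Mmp9 fell with CBP deletion and Camp rose with p300 deletion (5 and 7 at an unadjusted p under 0.05). No marker can be at 0 on this scale. Of the 10 macrophage and monocyte markers 3 (Csf1r, Lyz2 and Ccr2) were above the dim range on all 9 arrays, 4 on some and 3 (Cd14, Fcgr1 and Cx3cr1) on none, and of the neutrophil markers 0 were above it on all arrays, 9 on some and 2 on none. The neutrophil sums, like Il10, did not overlap between knockouts and controls, and their part in the Il10 values was not tested.

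Ebi3 read 7.67, 7.88 and 7.98 in the controls, 7.63, 7.78 and 7.93 in CBP-deleted and 8.49, 8.42 and 8.16 in p300-deleted replicates. The p300-deleted arrays were above all 6 others, and the CBP-deleted arrays lay within or just below the range of the controls. In p300-deleted cells Ebi3 was 1.43-fold higher than in controls (log2 0.52, SE 0.12, limma adjusted p = 0.0396), and it was 1.49-fold lower in CBP-deleted than in p300-deleted cells (log2 -0.58, SE 0.12, limma adjusted p = 0.0182). CBP-deleted and control cells differed by -0.06 (95% interval -0.33 to 0.20). The rise against the control is near the threshold. It passed in 9 of 20 alternatives, and its adjusted p was 0.168, 0.136, 0.118, 0.0721 and 0.0549 without p300-deleted replicate 2, p300-deleted replicate 1, control replicate 1, CBP-deleted replicate 2 and CBP-deleted replicate 1. With 18S fitted as a covariate the rise was 0.40 with a limma adjusted p of 0.194, the highest of the 20. The difference between the knockouts passed in 16 of 20, and its adjusted p was 0.0807 to 0.0864 without CBP-deleted replicate 1 or 2 or p300-deleted replicate 1 or 2. Some plasma cell markers moved with Ebi3. Jchain, the joining chain of secreted antibodies, read 12.90 ± 0.15 (SD, n = 3) in p300-deleted cells, 11.80 ± 0.31 in CBP-deleted cells and 11.87 ± 0.29 in controls. Of 6 such markers 4 (Tnfrsf17, Jchain, Sdc1 and Xbp1) rose in p300-deleted cells, and with limma 0 passed in CBP-deleted cells (1 at an unadjusted p under 0.05). The others, Irf4 (0.16) and Prdm1 (-0.08), did not pass in p300-deleted cells (limma adjusted p = 0.711 and 0.833). Tnfrsf17 was above the dim range on 3 of the 9 arrays. The summed linear level of the 6 was 10181 to 12050 in p300-deleted arrays against 5253 to 6353 in controls and 5258 to 6617 in CBP-deleted arrays. Of 7 mast cell and basophil markers 4 rose in p300-deleted cells (Mcpt8, Fcer1a, Cma1 and Cpa3). The sums of the 7 were 434 to 769 against 211 to 237 in controls and 215 to 453 in CBP-deleted arrays. The others, Kit (0.10), Hdc (0.09) and Ms4a2 (-0.22), did not pass in p300-deleted cells. Of the 7, 1 was above the dim range on all arrays, 5 on some and 1 on none. The sums of Treg identity and T cell markers were also highest in p300-deleted arrays, but not every member was. The means of Ctla4, Tnfrsf4, Cd247 and Cd28 were highest in CBP-deleted cells, and the mean of Tnfrsf18 was highest in controls. The sum of 10 Treg identity markers, without the Foxp3 probe set, was 11884 to 12249 in p300-deleted arrays against 10096 to 10716 in controls and 9772 to 10442 in CBP-deleted arrays, and 1 of the 10 rose against the control (Izumo1r). The sum of 7 T cell markers was 18009 to 18974 against 14956 to 17410 and 16322 to 17114, and 2 of the 7 rose (Cd4 and Cd3g). The part of these markers in the Ebi3 values was not tested.

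**Figure D2:**
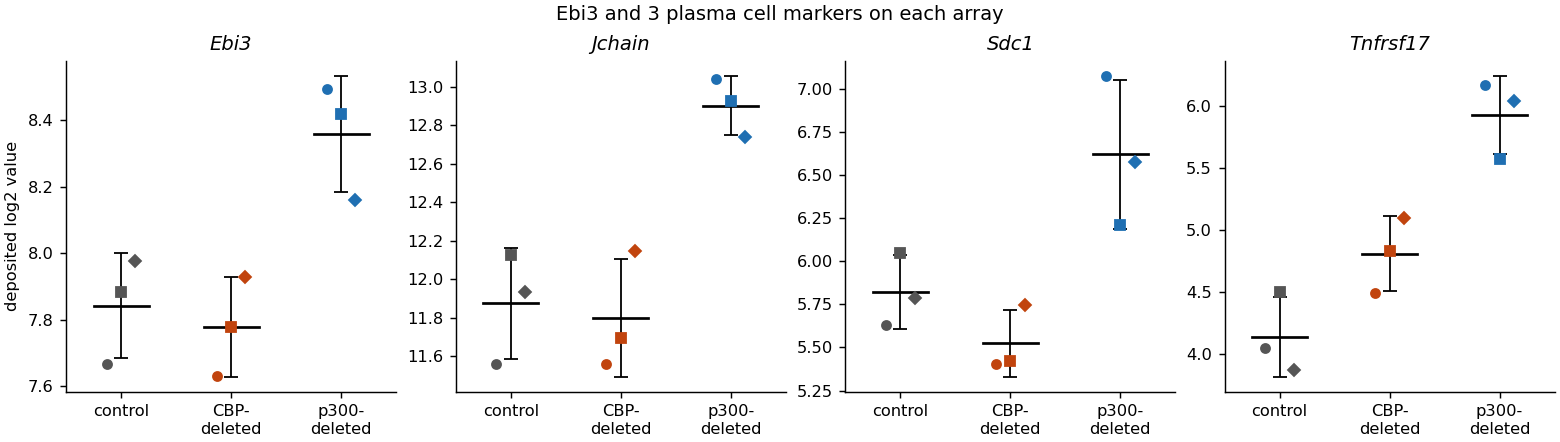
Deposited log2 value (vertical axes differ between panels) of Ebi3, Jchain, Sdc1 and Tnfrsf17 in the 3 groups. The last 3 are among the plasma cell markers that rose in p300-deleted cells. Circles, squares and diamonds are replicates 1, 2 and 3, with means and SDs over 3 arrays; in each panel the p300-deleted arrays are the highest.

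Ecm1 encodes extracellular matrix protein 1, a secreted glycoprotein. It read 9.12, 8.95 and 8.58 in the controls, 7.50, 7.52 and 7.50 in CBP-deleted and 8.55, 8.68 and 8.85 in p300-deleted replicates. The CBP-deleted arrays were the lowest, by more than a doubling below the nearest other array, and their SD of 0.01 was the smallest of any gene and group among the 10. Ecm1 fell 2.60-fold in CBP-deleted cells (log2 -1.38, SE 0.13, limma adjusted p = 0.000533), and it was 2.27-fold lower in CBP-deleted than in p300-deleted cells (log2 -1.19, SE 0.13, limma adjusted p = 0.00122). Both passed in all 20 alternatives, but Ecm1 also has 1 probe set, so the alternatives on probe sets could not change these differences. In p300-deleted cells it differed from the control by -0.20 (95% interval -0.48 to 0.09, limma adjusted p = 0.481), and by -0.35 (0.0710) without control replicate 3. The summed linear level of 11 B cell markers was also low in CBP-deleted cells, at 682 to 945. It was 1312 to 1554 in controls and 934 to 1379 in p300-deleted cells. In CBP-deleted cells 5 of the 11 fell (Cd72, Cd79a, Spib, Cd79b and Cd22). Above the dim range were 7 of the 11 on all 9 arrays, and 4 (Pax5, Ebf1, Cr2 and Fcer2a) on none. Of the 7, Blk (-0.05) and Ms4a1 (-0.96) did not pass in CBP-deleted cells (limma adjusted p = 0.965 and 0.0628). The Treg identity sums without Foxp3, given beside Ebi3, overlapped between CBP-deleted and control arrays; of those 10 markers 2 rose (Ctla4 and Tnfrsf4) and 2 fell (Capg and Gpr83). The part of either list in the Ecm1 values was not tested.

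CBP was named for its binding to CREB, a factor that recognises the cAMP response element (CRE). Short windows before the transcription start of the effector genes were therefore searched for such elements. Sequences were available for 6 of the 10 genes in the RefSeq table of GRCm38.p6 (7 windows of 250 bases before the start). There was none for Il10, Lag3, Itgae and Cd83, which were not searched. Each motif was searched on both strands. The full CRE, TGACGTCA, was in 0 of the 7 windows and in 1.55% of 32851 windows of all genes. Its first letters, TGACG, which any full CRE also contains, were in both windows of Entpd1 (17.8% of all windows). The AP-1 element TGANTCA was in the windows of Ecm1 and Fgl2 (6.75% of all windows). The STAT element TTCNNNGAA was in that of Fgl2 (7.02% of all windows). The letters TGTTTAC (forkhead), TGTGGT (RUNX) and the NF-kappaB element were in none of the 7, and in 3.17%, 14.0% and 0.356% of all windows. A stretch is shown for each of the 3 genes whose window held a match, among them Ecm1, whose fall with CBP deletion had the largest size of the 10; for Entpd1 it comes from 1 of the 2 windows. They are written 5′ to 3′ on the strand of the gene, with the matches in capitals. A match is a description of the letters and not a binding site.
Ecm1, chr3:95739615-95739644, minus strand: gcagcagggacTGAGTCAtggcaggaaaca
Fgl2, chr5:21372625-21372672, plus strand: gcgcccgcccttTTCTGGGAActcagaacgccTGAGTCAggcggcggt
Entpd1, chr19:40612204-40612263, plus strand: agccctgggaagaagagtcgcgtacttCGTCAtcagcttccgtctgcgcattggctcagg
In Ecm1 the AP-1 letters begin 64 bases before the start, in Fgl2 the STAT letters begin 36 and the AP-1 letters 16 bases before it, and in Entpd1 the partial element, here on the opposite strand as CGTCA, begins 135 bases before it. The Ecm1 window belongs to a start inside the annotated gene, which reaches to 95739876 on chromosome 3.

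Fgl2, a fibrinogen-like protein that Treg cells can secrete and that binds the inhibitory Fc receptor Fcgr2b, read 6.08, 6.54 and 6.71 in the controls, 6.45, 6.72 and 6.80 in CBP-deleted and 6.48, 5.79 and 5.82 in p300-deleted replicates. Replicates 2 and 3 of the p300-deleted cells were below all 7 other arrays, while p300-deleted replicate 1 lay among them. CBP-deleted cells exceeded p300-deleted cells by 0.63 (SE 0.20, limma adjusted p = 0.108), which did not pass, and which was 0.86 with 0.0334 without p300-deleted replicate 1. The second Fgl2 probe set, close to the dim range at 4.31 to 5.35, differed by 0.21 (limma adjusted p = 0.714). The 95% intervals against the control were -0.23 to 0.66 for CBP-deleted and -0.86 to 0.03 for p300-deleted cells.

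Of the surface enzymes that make adenosine, Entpd1 read 5.78, 6.20 and 5.53 in the controls, 5.34, 5.22 and 5.32 in CBP-deleted and 6.01, 5.85 and 5.71 in p300-deleted replicates. The CBP-deleted arrays lay below all others, and control replicate 3 was the nearest to them. The differences were -0.54 against control (SE 0.16, limma adjusted p = 0.0791) and -0.56 against p300-deleted cells (SE 0.16, limma adjusted p = 0.0691), and neither passed. Without control replicate 3 they were -0.70 (limma adjusted p = 0.0157) and -0.56 (0.0256), and the second was 0.0164 without control replicate 2. The other Entpd1 probe set read 4.77 to 5.53, in and near the dim range, with differences of -0.15 and -0.46 that did not pass (limma adjusted p = 0.592 and 0.0951). In p300-deleted cells Entpd1 differed from the control by 0.02 (95% interval -0.33 to 0.37).

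Nt5e read 5.28, 4.88 and 6.15 in the controls, 6.32, 6.08 and 5.68 in CBP-deleted and 5.86, 5.81 and 6.35 in p300-deleted replicates. Control replicate 3 lay among the knockout arrays and the other 2 controls lay below all 6 of them. With all arrays the differences were 0.59 in CBP-deleted (SE 0.28, limma adjusted p = 0.267) and 0.56 in p300-deleted cells (SE 0.28, limma adjusted p = 0.315), and the control SD of 0.65 was the largest of any gene and group among the 10. Without control replicate 3, the control with the highest 18S reading, they were 0.94 (limma adjusted p = 0.0218) and 0.92 (0.0289). With all arrays kept and 18S fitted as a covariate they were 0.42 and 0.24, with adjusted p of 0.426 and 0.783.

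Of the receptors and adhesion molecules, Cd44, the hyaluronan receptor that is high on activated T cells, read 10.05, 10.53 and 10.45 in the controls, 9.55, 9.77 and 9.53 in CBP-deleted and 9.98, 9.22 and 9.74 in p300-deleted replicates. All 6 knockout arrays lay below the controls, with p300-deleted replicate 1 just under control replicate 1. Cd44 fell 1.66-fold in CBP-deleted cells (log2 -0.73, SE 0.18, limma adjusted p = 0.0374) and 1.63-fold in p300-deleted cells (log2 -0.70, SE 0.18, limma adjusted p = 0.0481). Both are close to the threshold and passed in 7 and 5 of 20 alternatives, with adjusted p from 0.0208 to 0.144 and from 0.0338 to 0.194. In CBP-deleted cells the call was lost when any array other than p300-deleted replicates 1 and 2 was left out (log2 -0.88 to -0.64). In p300-deleted cells it was lost when any array other than p300-deleted replicate 1 and control replicate 1 was left out, and was -0.49 without p300-deleted replicate 2. Without control replicate 3 the differences were -0.68 and -0.65 (limma adjusted p = 0.0567 and 0.0750). The second, dimmer Cd44 probe set (6.09 to 7.03) differed from the control by -0.15 with CBP deletion and -0.36 with p300 deletion, and neither difference passed (limma adjusted p = 0.675 and 0.283). The fall therefore rests on 1 of 2 probe sets. B cells also carry Cd44. The B cell marker sums given beside Ecm1 were lower in CBP-deleted than in control cells without overlap. In p300-deleted cells these sums (934 to 1379) overlapped those of the controls (1312 to 1554), and 1 of the 11 markers fell (Spib). The part of these markers in the Cd44 values was not tested.

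Itgae encodes CD103, the integrin chain that binds E-cadherin on epithelia. It read 7.42, 6.99 and 8.11 in the controls, 7.36, 7.34 and 6.99 in CBP-deleted and 6.58, 6.47 and 7.08 in p300-deleted replicates. The groups overlapped, with control replicate 3 the highest array and control replicate 2 below 1 of the p300-deleted arrays. The difference of -0.80 in p300-deleted cells did not pass (SE 0.25, limma adjusted p = 0.0989), and was -1.06 with 0.0233 without control replicate 2 and -0.49 with 0.157 without control replicate 3. In CBP-deleted cells it was -0.28 (95% interval -0.82 to 0.26), and 0.02 without control replicate 3.

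Lag3, an inhibitory receptor that binds MHC class II, read 6.60, 7.05 and 6.70 in the controls, 7.27, 7.00 and 7.03 in CBP-deleted and 7.03, 6.87 and 7.48 in p300-deleted replicates. Control replicate 2 lay among the knockout arrays and the other controls below them, and the differences of 0.32 and 0.34 (SE 0.17 each) did not pass (limma adjusted p = 0.312 and 0.300). Cd83, a surface protein of activated lymphocytes and dendritic cells that stabilises MHC class II, read 9.06, 9.38 and 9.59 in the controls, 9.43, 9.23 and 9.26 in CBP-deleted and 9.61, 9.49 and 9.41 in p300-deleted replicates. Its groups overlapped. The 95% intervals were -0.30 to 0.23 for CBP-deleted and -0.11 to 0.43 for p300-deleted cells, the narrowest of the genes that passed in no comparison.

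**Figure D3:**
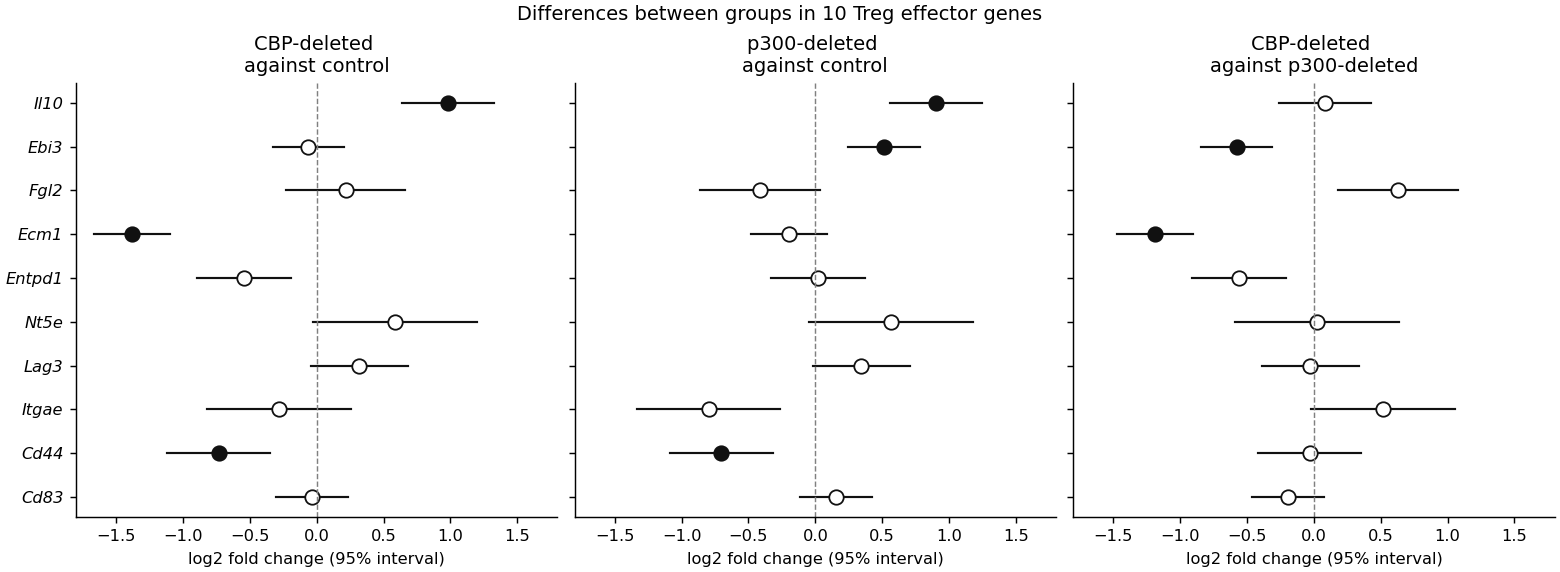
Log2 fold change (horizontal axis) of the 10 genes in each comparison, with 95% intervals of the limma fit over 9 arrays. Filled points have an adjusted p under 0.05; Il10 is filled against the control in both knockouts at 0.98 and 0.90, and Ecm1 is filled in both comparisons of CBP-deleted cells at -1.38 and -1.19.

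**Figure D4:**
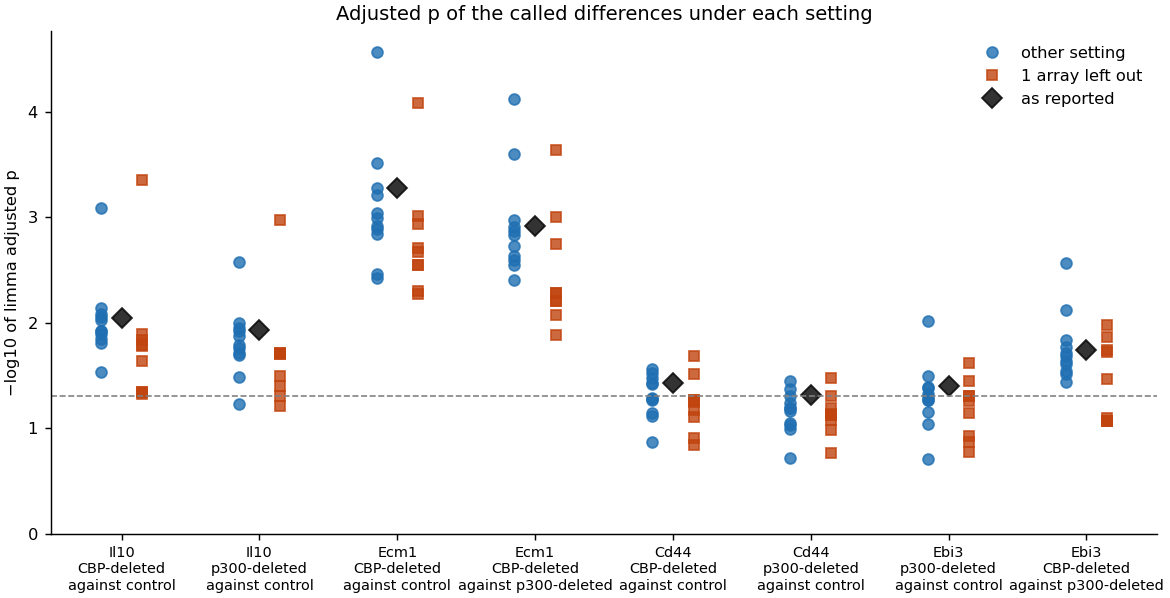
The −log10 of the limma adjusted p (vertical axis) for the 8 differences that passed, under each alternative setting (circles), with 1 array left out (squares) and as reported (diamonds); the dashed line is the threshold of 0.05. All Ecm1 points and the Il10 points of CBP-deleted cells lie above the line, and the Cd44 and Ebi3 points lie on both sides of it.

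Within groups the SDs of the 10 genes ran from 0.01 to 0.65. The control SD was the largest of the 3 groups for 6 of the 10. Control replicate 3 was the highest control for 6 genes (Il10, Ebi3, Fgl2, Nt5e, Itgae and Cd83) and the lowest for 2 (Ecm1 and Entpd1), so it lay on the side of the knockouts for some genes, such as Il10, Ecm1 and Nt5e, and on the other side for Itgae in p300-deleted cells.

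The genes around each effector were read from lists named for their roles. In IL-10 signalling and its inducers (14 of 14 measured), 1 rose and 1 fell in CBP-deleted cells, with a median of -0.09, and with limma 0 passed in p300-deleted cells (median 0.08), where 5 had an unadjusted p under 0.05. Ahr, a ligand-activated transcription factor that can induce Il10, rose by 1.21 in CBP-deleted cells (SE 0.18, limma adjusted p = 0.00532) and was 1.01 higher there than in p300-deleted cells (limma adjusted p = 0.00734). These are readings of the brighter of its 2 probe sets, and the other had the opposite sign against the control. Bcl3, an atypical inhibitor of NF-kappaB that is induced by IL-10 in myeloid cells, fell by 0.60 in CBP-deleted cells (limma adjusted p = 0.0103). Between the knockouts 1 was higher and 3 were lower in CBP-deleted cells; the lower ones were Socs3, a feedback inhibitor of STAT3 signalling (-0.55), Bcl3 (-0.43) and Il10rb, a chain of the IL-10 receptor (-0.31). Il10ra, the chain that binds IL-10, was -0.52 in p300-deleted and Nfil3, a transcription factor, -0.39, and neither passed (limma adjusted p = 0.0697 and 0.0962). The other Il10ra probe sets did not all share the sign.

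In the adenosine pathway (9 of 14 measured; medians 0.09 and 0.14 with CBP and p300 deletion) 1 gene, Dpp4, passed. Dpp4 encodes CD26, a surface peptidase that binds adenosine deaminase and is usually low on Treg cells. It rose by 0.50 in CBP-deleted cells (SE 0.10, limma adjusted p = 0.0220) and by 0.67 in p300-deleted cells (SE 0.10, limma adjusted p = 0.00819), with both of its probe sets higher; their mean in CBP-deleted cells was 0.47 higher and did not pass (limma adjusted p = 0.0570). Between the knockouts 0 of the 9 passed with limma (1 at an unadjusted p under 0.05). The largest differences were 0.48 for Adk, adenosine kinase, and -0.33 for Slc29a1, a nucleoside transporter (limma adjusted p = 0.126 and 0.427). In the IL-12 family and its receptors (7 of 9 measured; medians -0.10 in both knockouts), to which Ebi3 belongs, 1 gene passed, in CBP-deleted cells. Il12rb1, a chain of the receptors for IL-12 and IL-23, fell by 0.70 in CBP-deleted cells (limma adjusted p = 0.0254) and was -0.33 in p300-deleted cells (0.273). Il12b (-0.29 in p300-deleted cells) and Il12rb2 (-0.31 between the knockouts) were in the dim range and did not pass. With limma 0 of the 7 passed in p300-deleted cells or between the knockouts (0 and 1 at an unadjusted p under 0.05).

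Of 16 measured binding partners of 18 listed (medians -0.14 and -0.12), 0 passed in CBP-deleted cells with limma (4 at an unadjusted p under 0.05); Hmmr, another hyaluronan receptor, was 0.59 higher and Fcgr2b, the receptor of Fgl2, -0.36 (limma adjusted p = 0.200 and 0.0662). In p300-deleted cells 1 rose: Cd4, the coreceptor to which Lag3 is related, by 0.66 (limma adjusted p = 0.0214). Hmmr, which is also a gene of dividing cells, was 1.08 higher in CBP-deleted than in p300-deleted cells (limma adjusted p = 0.0264), with all 4 of its probe sets on that side, but their mean differed by 0.78 and did not pass (limma adjusted p = 0.206). Of 24 other Treg effectors and inhibitory receptors 19 were measured; 4 rose and 1 fell with CBP deletion (median -0.09), while with p300 deletion 1 rose, 1 fell and the median was 0.00. The decoy receptor Il1r2 rose by 1.00 (SE 0.16, limma adjusted p = 0.00757), the inhibitory receptor Ctla4 by 0.56, the inhibitory ligand Cd200 by 0.53 and the costimulatory receptor Tnfrsf4 by 0.43, while the cytokine Tgfb1 fell by 0.44, in CBP-deleted cells (limma adjusted p up to 0.0414). In p300-deleted cells Cd200 rose by 0.55 (limma adjusted p = 0.0405), and Lgals1, a galectin that Treg cells secrete, fell by 0.74 (limma adjusted p = 0.0266). Between the knockouts Il1r2 was 0.72 higher and Itgav, an integrin chain that helps to activate TGF-beta, was -0.36 in CBP-deleted cells. Of the 3 Itgav probe sets 2 shared that sign, and their mean differed by -0.16 (limma adjusted p = 0.358).

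With each of the 9 arrays left out in turn, the calls of Ahr and Il1r2 in CBP-deleted cells were kept in 9 of 9 fits, Bcl3 in 7, Ctla4 in 6, Dpp4, Il12rb1 and Tgfb1 in 5, Tnfrsf4 in 4 and Cd200 in 2. In p300-deleted cells Dpp4 kept its call in 8, Cd4 in 7, Lgals1 in 6 and Cd200 in 2. Between the knockouts Ahr kept its call in 9, Socs3, Bcl3, Hmmr and Il1r2 in 4, Itgav in 3 and Il10rb in 2.

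**Figure D5:**
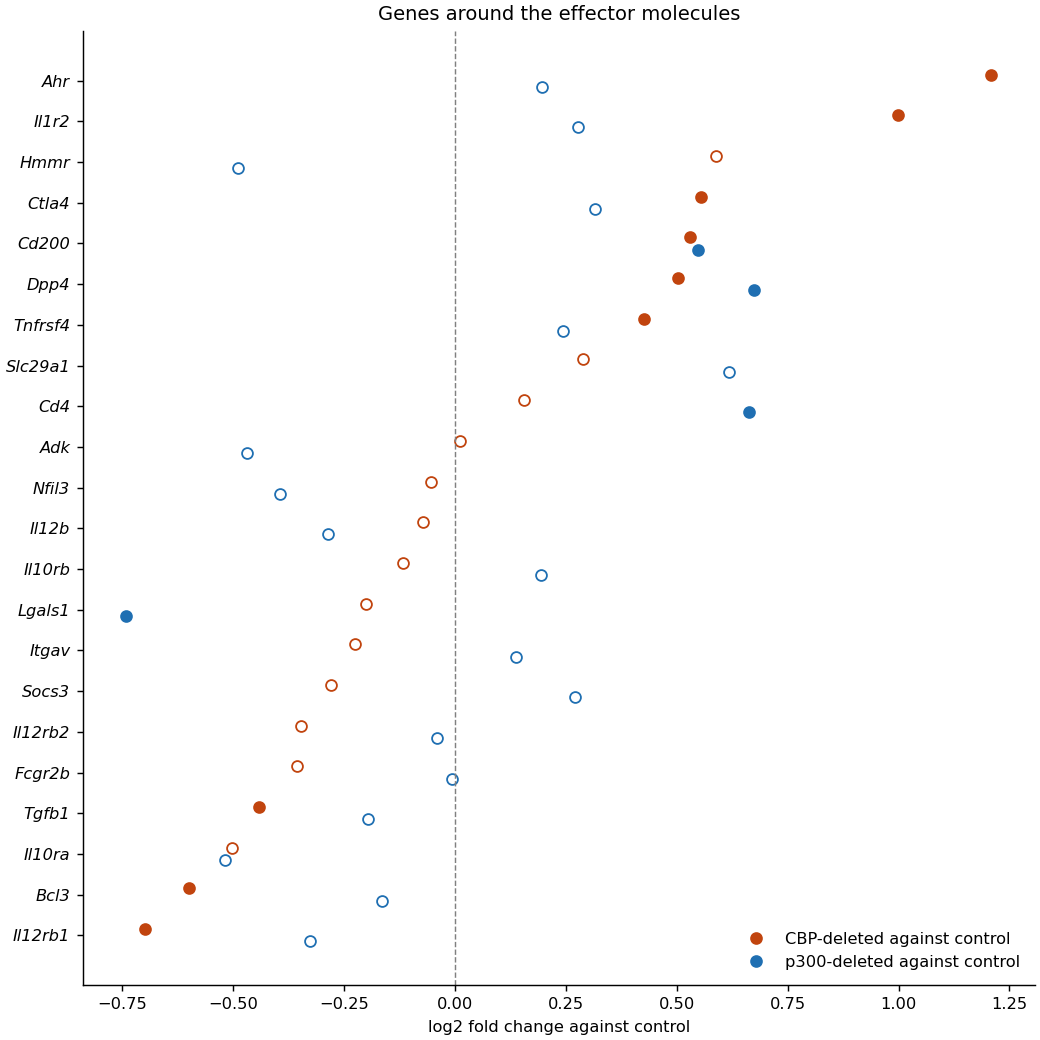
Log2 fold change against the control (horizontal axis) of the 22 named genes around the effector molecules in CBP-deleted and p300-deleted cells, which share the same controls. Filled points have a limma adjusted p under 0.05; Ahr and Il1r2 are the furthest to the right in CBP-deleted cells, and Dpp4 and Cd200 are filled in both.

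The genes whose values over the 9 arrays were most like each called effector gene were found by Pearson correlation, which here is a description of arrays that fall into 3 groups. For Il10 they were Yme1l1 (r = 0.99), Rnf11 (0.98) and Rpf1 (0.98). For Ecm1 they were Cst7 (0.99), Mapk12 (0.98) and Otulinl (0.98). For Ebi3 they were Jchain (0.97), B3galnt1 (0.95) and Igkv8-30 (0.93), an immunoglobulin light chain segment with near-identical copies, which the probes may not separate. For Cd44 they were Eloa (0.96), Hbegf (0.95) and Chdh (0.94).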

How the data were processed

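The authors deposited 1 log2 value per probe set and array, summarised with RMA per the submitters' processing notes; version, background and annotation settings are not given in the sources used here. They were used as deposited. Of 22690 probe sets, 64 were controls, 20380 had 1 gene symbol, 691 several and 1555 none. Symbols were checked against RefSeq (GRCm38.p6; 29 probe sets had no match and 0 symbols changed). A gene was read by its probe set with the highest mean over all 9 arrays (12393 genes).

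All genes were fitted with limma 3.58.1 in R 4.3.3, with 1 mean per group, 6 residual degrees of freedom, a variance trend, two-sided tests and p-values adjusted by Benjamini-Hochberg across the 12393 genes, with calls under 0.05. An exact permutation test of 3 against 3 cannot go below p = 0.1, so none was run. Array number limits the precision. The p-values weigh a group difference against the spread between these samples, which the design text calls independent. This spread is estimated from all 3 groups together, although the control SD was the largest for 6 of the 10 effector genes. The fit was tested on simulated data with known changes.

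The effector genes and the lists were chosen with earlier results of these data known. Named genes are all 10 effectors, up to 6 called members of each list (or else 2 by size), and the 3 most like each effector gene called against the control (predicted and unnamed genes left out). Most marker lists are given beside Il10, Ebi3, Ecm1 or Cd44. In addition, 0 of 10 dendritic cell markers passed in any comparison with limma (1, 1 and 2 at an unadjusted p under 0.05). Among 10 markers of CD8 T and NK cells 2 rose after CBP deletion (Gzmk and Cd8b1) and 1 after p300 deletion (Ncr1, by 1.43). Between the knockouts 0 of these 10 passed with limma (7 at an unadjusted p under 0.05). Their sums were 1585 to 2237 in CBP-deleted, 2274 to 3025 in p300-deleted and 1964 to 2726 in control arrays. Of the 7 T cell markers 1, Cd5, fell in CBP-deleted cells, by 0.32. The part of these markers in the effector values was not tested. Alternatives were a filter on genes under log2 5, other uses of probe sets, scaling and moderation, array weights, a replicate block, leaving out each array and, added after seeing the data, the 18S level as a covariate.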

Additional observations from a re-analysis of the deposited data

Results flagged for a closer look

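The effects of CBP and p300 deletion differed by the direct limma comparison for 9 of the named genes, given as log2 differences of CBP-deleted from p300-deleted cells. Among the effector genes these were Ecm1 (-1.19, adjusted p = 0.00122) and Ebi3 (-0.58, adjusted p = 0.0182). Among the genes around them they were Ahr (1.01), Hmmr (1.08), Il1r2 (0.72), Socs3 (-0.55), Bcl3 (-0.43), Itgav (-0.36) and Il10rb (-0.31), with adjusted p from 0.00734 to 0.0436. With the mean of all probe sets Hmmr (0.78) and Itgav (-0.16) did not pass.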

How the results depend on the processing

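Over 20 alternatives the calls of Il10 and Ecm1 in CBP-deleted cells and of Ecm1 between the knockouts were kept. Both genes have 1 probe set, and leaving out an array outside a comparison alters only the adjusted p. Not every alternative could therefore move these differences. The arrays of a group, 3 in number, limit all counts. Leaving out 1 array gave 2 to 4 called effector genes in CBP-deleted against control, 0 to 3 in p300-deleted against control and 1 to 3 between the knockouts, and 85 to 1131, 65 to 854 and 212 to 1041 called genes of 12393. In p300-deleted cells 1 of 10 effector genes passed with every probe set on its own, with no variance trend, with only the 2 groups compared and with the replicate block, and 0 with limma once 18S was a covariate (5 at an unadjusted p under 0.05). With array weights 4 passed between the knockouts. The weights were lowest for control replicates 2 and 3 (0.38 and 0.39). Called genes numbered 261, 165 and 1386 with only the 2 groups compared, 1755, 1028 and 1467 with array weights, and 364 and 244 against the control in CBP-deleted and p300-deleted cells with 18S as a covariate. With the replicate block they were 364 and 326; the arrays share only a number (deviations of same-numbered arrays correlated at -0.23 to 0.27). With array medians subtracted the split of called genes in CBP-deleted cells was 187 higher and 361 lower, against 265 and 346. Differences near 0 changed sign: with array weights Ebi3 was 0.0265 and Cd83 0.11 in CBP-deleted cells and Cd44 0.0522 between the knockouts, with the mean of all probe sets Cd44 was 0.092 between the knockouts, and with medians subtracted Entpd1 was -0.0049 in p300-deleted cells. Leaving out 1 array gave -0.24 to 0.14 for Cd44, -0.16 to 0.15 for Lag3 and -0.12 to 0.20 for Nt5e between the knockouts, -0.18 to 0.0857 for Cd83, -0.15 to 0.0122 for Ebi3 and -0.54 to 0.0225 for Itgae in CBP-deleted cells, and -0.14 to 0.20 for Entpd1 in p300-deleted cells. The cause of these changes was not tested.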
